A study of Saccharomyces cerevisiae with 15 samples.

Results

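The comparison asked, gene by gene, whether losing the regulators Yap1 and Yap8 together had a different effect from the sum of losing each one alone in budding yeast (Saccharomyces cerevisiae) exposed to arsenate. It was chosen by sample label alone and used the 12 arrays titled as 60 min of arsenate (AsV), of 15 arrays in the series. These were 3 arrays each of wild type (WT), of yap1, which lacks Yap1, of yap8, which lacks Yap8, and of the double mutant y1y8. The other 3 arrays were wild type without treatment at 0 min and served as a reference level. All 12 arrays carried arsenate, and no untreated mutant is among the samples, so an effect of a deletion that does not need arsenate cannot be told apart from one that does. The design text of the series gives a dose of 2 mM and describes growth in arsenate to exponential phase, which is not an exposure of 60 min, so whether this dose belongs to these samples is not settled. The same text describes yap1yap8 cells carrying the vectors pRS416 and YcpLac111, empty or with YAP1 or YAP8. The labels give no plasmid for any group, so it is not settled whether yap1 and yap8 were single deletion strains or double mutants with a plasmid copy of the other gene. The number of clones behind each genotype is not given, and nothing says that the 3 arrays of a group came from separate cultures, so p-values measure the spread between arrays.

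Yap1 is a basic leucine zipper regulator that gathers in the nucleus when oxidants or thiol-reactive metals modify its cysteines, and it raises genes for thioredoxin and glutathione defence and for drug export. Yap8, encoded by ARR1, is a relative of Yap1 that responds to arsenic. It drives its neighbours ARR2, an arsenate reductase, and ARR3, an exporter of arsenite through the plasma membrane, which lie head to head and share a promoter region. Reduction of arsenate followed by export of arsenite is the main route by which this yeast resists arsenate.

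The quantity used throughout is the departure from additivity, (y1y8 minus yap1) minus (yap8 minus WT), on log2 values of normalized intensity. It is 0 where losing Yap8 multiplies a gene's signal by the same factor with and without Yap1, negative where the double mutant lies below the value that the single mutants predict, and positive where it lies above. The same number results if the roles of both regulators are exchanged. Each departure was tested with limma, and a gene was called where its p-value, adjusted by Benjamini and Hochberg over 5588 genes, was under 0.05.

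The arrays were alike in the share of yeast probe sets called present. The median yeast probe set had an intensity of 548.2 to 933.8 per array, and the median probe set designed for a different species had 1.8 to 2.9. Between 98.4% and 99.3% of yeast probe sets were called present per array. Arrays of a group correlated across genes at 0.9802 to 0.9946 on the log2 scale, and genes are no independent replicates. The lowest values belonged to untreated replicate 2, at 0.9802 and 0.9828 with its partners. In y1y8, replicate 3 correlated at 0.987 and 0.9874 with replicates 1 and 2, which correlated at 0.9946 with each other. The deleted genes were checked first. Where ARR1 was deleted, in yap8 and y1y8, its probe set had an absent call on each of the 6 arrays, at intensities of 2.12 to 6.39, and it stood at 84.4% of its wild-type level in yap1. The YAP1 probe set kept 18.1% of its wild-type signal in yap1 and 18% in y1y8, was called present there, and stood at 102% of wild type in yap8. The labels do not say whether that probe set lies inside the deleted stretch.

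Limma called a departure from additivity on the log2 scale in 3 genes, all of them below it. They were ARR2, ARR3 and FRM2, a gene for a nitroreductase-like protein. They make up 0.0537% of the 5588 genes tested. In each of them the double mutant held far less RNA than the single losses predicted, by 21.6-fold for ARR2, 10.5-fold for ARR3 and 11.2-fold for FRM2. No gene was called above additivity by limma. At an unadjusted p under 0.05, 149 genes (2.67% of those tested) were above it and 88 (1.57%) below it. Together they were 4.24% of genes, under the fraction of 0.05 that this threshold passes on average where no gene departs. Neither number is thus a count of departures. The smallest adjusted p among genes not called was 0.272.

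**Figure D1:**
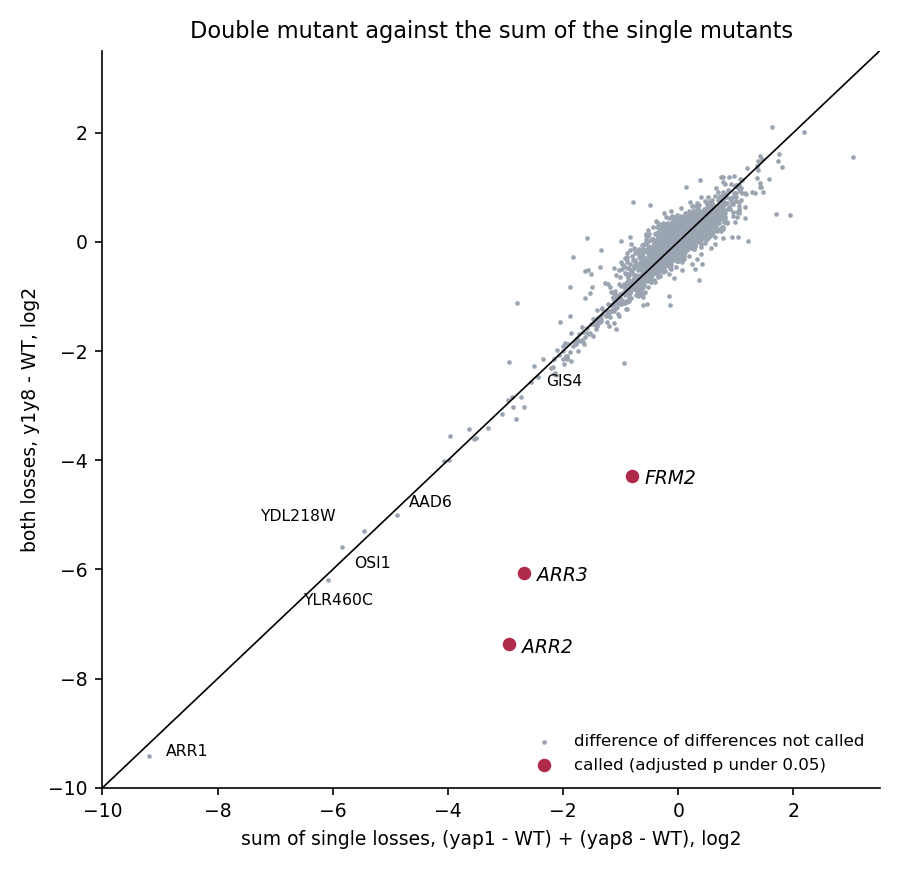
Each point is a gene, with the sum of the 2 single losses against treated wild type on the horizontal axis and the double mutant against treated wild type on the vertical axis, both in log2 units, and the line marks exact additivity. ARR2, ARR3 and FRM2 (large points, called by limma) lie off the line by -4.43, -3.39 and -3.48 log2 units, while YLR460C and OSI1, at -6.19 and -5.59 on the vertical axis, lie near it.

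ARR2 encodes the enzyme that reduces arsenate to arsenite. Its normalized intensity was 4186, 4614 and 4273 on the wild-type arrays with arsenate, and 3333, 3165 and 3277 in yap1. It was 927, 781 and 604 in yap8, and 24.9, 25.1 and 29.2 in y1y8. The 4 groups did not overlap, and the lowest yap8 array was still far above the highest y1y8 array. Relative to wild type, ARR2 stood at 74.8% in yap1, 17.4% in yap8 and 0.604% in y1y8, where the product of the single losses would leave 13.0%. The departure was -4.43 ± 0.19 (SE, 3 arrays a group; 95% interval -4.83 to -4.03, limma adjusted p = 2.15e-08). Losing Yap8 lowered ARR2 5.74-fold where Yap1 was present and 124-fold where it was absent. Losing Yap1 lowered it 28.8-fold in cells without Yap8. In cells with Yap8 the same loss gave -0.42 ± 0.13 (limma adjusted p = 0.04), and that call ended in 11 of the 21 alternative fits, 8 of which left out 1 array (any of the 3 WT arrays, any of the 3 yap1 arrays, yap8 replicate 2 or y1y8 replicate 2).

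The double mutant also lay below cells that had never met arsenate. ARR2 was 2403, 1912 and 2218 on the untreated wild-type arrays, so it was 2.01-fold higher with arsenate in wild type and 1.5-fold higher in yap1, but 2.86-fold lower than untreated in yap8 and 82.4-fold lower in y1y8 (-6.36 ± 0.13, limma adjusted p = 1.81e-13). On the y1y8 arrays its log2 level exceeded that of 2.1% of genes, against 93.4% in treated wild type, and the probe set was still called present on all 3. Mutants and untreated wild type differ in genotype, arsenate and time together, and these effects cannot be told apart.

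ARR3 encodes the arsenite exporter. Its intensity with arsenate was 5085, 4769 and 5061 in wild type and 2563, 2559 and 2811 in yap1. It was 1810, 1241 and 1394 in yap8 and 62.8, 94.0 and 69.2 in y1y8. Again no treated groups overlapped, while the double mutant overlapped with untreated wild type, which was 77.5, 56.0 and 62.8. ARR3 stood at 53.2% of wild type in yap1, 29.4% in yap8 and 1.49% in y1y8, where the product of the single losses would leave 15.7%. The departure was -3.39 ± 0.23 (95% interval -3.88 to -2.90, limma adjusted p = 3.65e-06). Losing Yap8 lowered ARR3 3.40-fold with Yap1 and 35.6-fold without it, and losing Yap1 lowered it 1.88-fold with Yap8 and 19.7-fold without it.

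Set against untreated wild type, ARR3 was 76.6-fold higher in treated wild type, 40.7-fold in yap1 and 22.6-fold in yap8. In y1y8 it was 1.14-fold higher, a difference of 0.19 ± 0.16 in log2 that did not pass the test (limma adjusted p = 0.276). The double mutant was the only treated group in which ARR3 did not pass the test against untreated wild type.

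FRM2 had another shape. Its intensity with arsenate was 8296, 8280 and 8495 in wild type and 4716, 5403 and 5730 in yap1. It was 7605, 7394 and 7692 in yap8 and 496, 518 and 304 in y1y8. The y1y8 arrays were far below all others, and yap8 lay just under wild type without overlap. FRM2 stood at 63.0% of wild type in yap1, 90.5% in yap8 and 5.11% in y1y8, where the product of the single losses would leave 57.0%. The departure was -3.48 ± 0.24 (95% interval -4.0 to -2.96, limma adjusted p = 3.65e-06). Losing Yap8 had no called effect on FRM2 in cells with Yap1 (-0.14 ± 0.17, limma adjusted p = 0.985) and lowered it 12.3-fold in cells without Yap1. Losing Yap1 lowered it 1.59-fold with Yap8, a call that ended without yap1 replicate 1 and when the null was set at 1.2-fold, and 17.7-fold without Yap8.

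Untreated wild type held FRM2 at 113, 85.8 and 114. It was therefore 80.8-fold higher in treated wild type, 50.9-fold in yap1 and 73.1-fold in yap8, and still 4.13-fold higher in y1y8 (limma adjusted p = 8.31e-08). Within y1y8, replicate 3 was lower than the other arrays, and without it the departure was -3.23. Levels of FRM2 in treated wild type exceeded those of 99.2% of genes, so the top of the intensity scale was examined. There were 411 genes with a mean log2 value of at least 12 in treated wild type, ARR2 and ARR3 among them. Of the 411, 67 were called lower with the loss of Yap1, where 9.34% of all genes were. Apart from the 3 called genes, the departures of the other 408 ran from -0.56 to 0.47. Most of these genes were not called lower with the loss of Yap1, so their range cannot show an effect of the top of the scale. Whether it shaped the called departures was not tested.

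**Figure D2:**
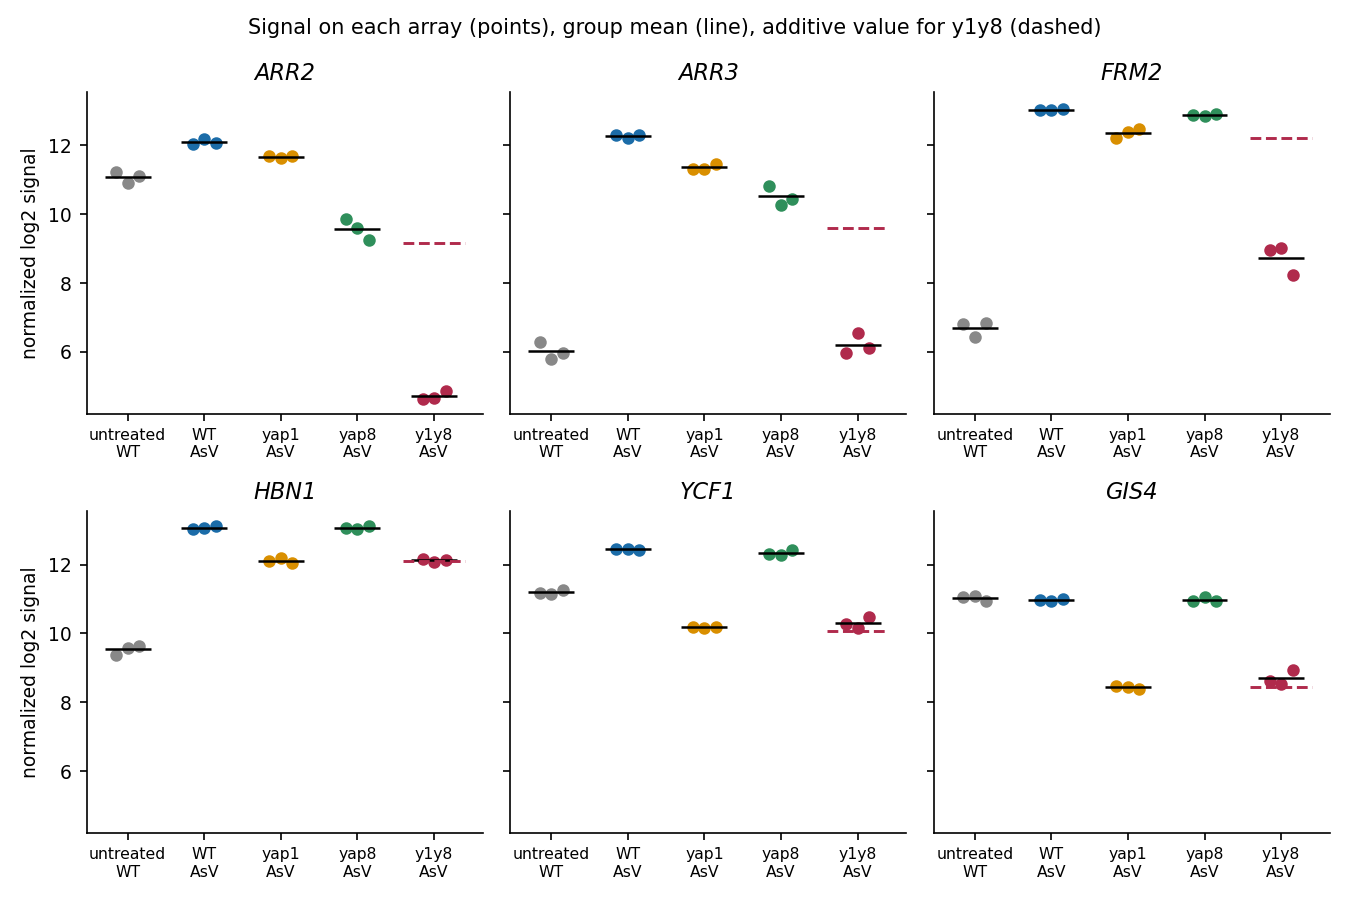
Normalized log2 signal on each array (points, 3 a group) with the group mean (line) and the value for y1y8 that the single mutants predict on the log2 scale (dashed). ARR2, ARR3 and FRM2 fall below the dashed line on all 3 y1y8 arrays, while the y1y8 means of HBN1, YCF1 and GIS4 lie within 0.24 log2 units of it.

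The shapes of the 3 departures can be set side by side. For ARR2 and ARR3, loss of Yap8 was called lower with and without Yap1, and the fall was deeper without it. For FRM2, loss of Yap8 was called only where Yap1 was absent. Over the 81 ways of choosing 1 array from each treated group, the departure had 1 sign throughout for 142 genes (2.54% of those tested), positive in 73 (1.31%) and negative in 69 (1.23%), the latter with ARR2, ARR3 and FRM2 among them.

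Additivity depends on the scale, and the direction of the ARR2 and ARR3 departures does too. On linear intensity, taking both single losses off the wild-type mean predicts -329 for ARR2 and -846 for ARR3, values that no cell can have, against observed means of 26.4 ± 2.5 (SD, n = 3) and 75.4 ± 16.5 (SD, n = 3). The linear difference of differences was therefore positive, at 355 ± 168 (SE) for ARR2 and 921 ± 215 (SE) for ARR3. For FRM2 the linear prediction was 4490 against 439 ± 118 (SD, n = 3) observed, a difference of -4051 ± 326 (SE). FRM2 alone of the 3 called genes thus lay below additivity on both scales, and no test was made on the linear scale. Among all 237 genes with an unadjusted p under 0.05 (4.24% of those tested), only ARR2 and ARR3 changed sign between the scales.

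**Figure D3:**
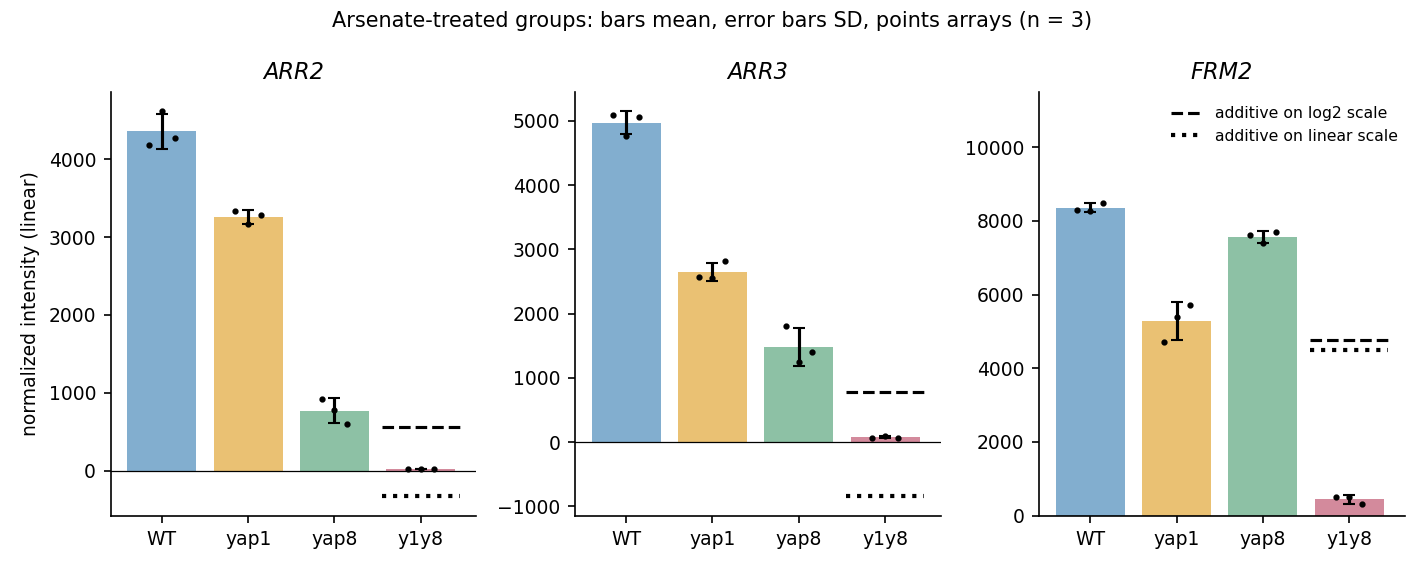
Mean normalized intensity on a linear axis in the 4 arsenate-treated groups (bars, with SD and the 3 arrays as points), with the value of y1y8 predicted by additivity on the log2 scale (dashed) and on the linear scale (dotted). The dotted prediction lies under 0 for ARR2 and ARR3, at -329 and -846, and near the dashed one for FRM2, at 4490.

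ARR2 and ARR3 lie beside each other, and both had a called departure. None of the other neighbours looked up had one, and genes beyond ARR3 were not looked up. In the gene order of the reference table, ARR1, ARR2 and ARR3 follow each other, and the genes on the other side of ARR1 are SGE1, an exporter of dyes, and YPR196W. The departure was 0.06 ± 0.24 for SGE1 and -0.00 ± 0.16 for YPR196W, neither of them called by limma. HBN1, which lies beside FRM2 and encodes a protein of the same family, was looked up after the FRM2 result was seen. It stood at 51.3% of wild type in yap1, 99.2% in yap8 and 52.0% in y1y8, and its departure was 0.03 with a 95% interval of -0.18 to 0.24. AGP1 and KCC4, on the other side of FRM2, had departures of -0.04 and -0.05, and FUS1, beyond HBN1, had -0.46 with an interval of -0.99 to 0.07.

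The genes beside YAP1 were ERG6, a sterol methyltransferase, MIN4 and GIS4. Their departures were 0.11 ± 0.09, -0.13 ± 0.12 and 0.24 ± 0.13, and limma called none of them. GIS4 was 1991, 1948 and 2035 in wild type and 352, 347 and 335 in yap1, and 1978, 2119 and 1975 in yap8 against 391, 369 and 490 in y1y8. Its fall with the loss of Yap1 was thus -2.53 with Yap8 and -2.29 without it, in both cases without overlap between groups.

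No departure was called for the deleted genes or the plasmid markers. YAP1 had a departure of -0.04 ± 0.19, and that of ARR1 (-0.22 ± 0.39) cannot be read because its signal was at background in yap8 and y1y8. URA3, the marker of pRS416, had a departure of -0.00 ± 0.13, and its level was 0.53 higher in yap8 than in wild type and 0.52 higher in y1y8 than in yap1. The first of these differences was called (limma adjusted p = 0.0441) and the second was not (limma adjusted p = 0.0555). The first call ended in 13 of the 21 alternative fits, 9 of which left out 1 array (any WT or yap8 array, yap1 replicate 3, or y1y8 replicate 1 or 2). URA3 was also 0.78 higher in y1y8 than in wild type (limma adjusted p = 2.87e-05), while its differences for the loss of Yap1 were not called. LEU2, the marker of YcpLac111, had a departure of 0.28 ± 0.28 with a 95% interval of -0.33 to 0.90. It was 0.84 higher in y1y8 than in yap8 (limma adjusted p = 0.00939), while no mutant group was called against wild type. Its y1y8 arrays spread from 3248 to 5898, and the part of plasmids in either gene was not tested.

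Few other genes answered to Yap8 at all. With Yap1 present, 7 genes (0.125% of 5588) were called for the loss of Yap8, 2 higher (0.0358%) and 5 lower, and with Yap1 absent 5 were (0.0895%), all lower. ARR1, ARR2 and ARR3 were called in both. FRM2 and KEL2, a kelch-repeat protein of cell polarity, were called only without Yap1, while TOS6, SVS1, URA3 and YKR005C were called only with it. A gene on 1 list and not the other is not shown to differ by that, and of these genes only ARR2, ARR3 and FRM2 had a called departure.

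TOS6, a gene for a cell wall protein, was 107, 130 and 106 in wild type and 50.2, 37.4 and 37.3 in yap8. It was 117, 76.3 and 121 in yap1 and 59.5, 48.8 and 61.2 in y1y8. Both yap8 and y1y8 lay below their partner group without overlap, and the departure was 0.60 ± 0.24 (limma adjusted p = 1). SVS1, another gene for a cell wall protein, was 627, 544 and 475 in wild type and 253, 217 and 220 in yap8. It was 674, 474 and 668 in yap1 and 389, 408 and 378 in y1y8. Loss of Yap8 gave -1.25 with Yap1 (limma adjusted p = 0.000353) and -0.61 without it (limma adjusted p = 0.18), and the second passed in 2 of the 21 alternative fits. The departure was 0.64 ± 0.18 (95% interval 0.25 to 1.03, limma adjusted p = 0.741).

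KEL2 fell by 0.56 ± 0.08 with the loss of Yap8 in cells without Yap1 (limma adjusted p = 0.0198), and in cells with Yap1 the difference was -0.30 ± 0.08 (limma adjusted p = 0.348). Its departure was -0.26 ± 0.12, not called. The first call ended in 7 of the 21 alternative fits, among them those without yap1 replicate 1 or 3 and without y1y8 replicate 2 or 3. YKR005C, a gene of unknown role, was 0.39 higher in yap8 than in wild type, a call that ended in 15 of the 21 alternative fits, 10 of which left out 1 array (any but y1y8 replicates 2 and 3), and had a departure of -0.25 ± 0.09.

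Genes that changed with the loss of Yap1 seldom had a called departure, and the same held for all genes (0.0537% called). Loss of Yap1 was called in 1059 genes (19% of those tested, 9.61% higher and 9.34% lower) with Yap8 present and in 1072 (19.2%) with it absent, and 731 genes were called in both, all in the same direction. Those comparisons share no arrays. Only 3 of the 1059 genes had a called departure, namely ARR2, ARR3 and FRM2. Of the 133 genes that fell at least 2-fold with the loss of Yap1, none had a called departure by limma. An unadjusted p under 0.05 was found for 5 of them, where 4.24% of all genes had one. The 95% interval stayed within 1 log2 unit of 0 for 122. The share of all genes with such an interval was 95.2%. Of the 16 genes that rose at least 2-fold, none was called either, and 10 had such an interval.

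The list of Yap1 oxidative and thiol stress targets had 45 measured members of 46 listed. With the loss of Yap1 in cells with Yap8, 35 were called lower, 2 were called higher and 8 were not called. The median effect of losing Yap1 was -1.05 with Yap8 and -1.15 without it, and the median departure of the list was 0.00, against -0.01 over all genes. FRM2 was the single member with a called departure. Of the other 44, the 95% interval lay within 1 log2 unit of 0 for 43 and within 0.5 for 31, where 66.9% of all genes had an interval within 0.5.

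The genes that follow fell with the loss of Yap1 to different degrees. YLR460C, a quinone oxidoreductase-like gene, was 1998, 2317 and 1949 in wild type and 45.8, 23.9 and 26.3 in yap1. It was 1965, 2287 and 1990 in yap8 and 43.0, 22.6 and 23.8 in y1y8. The arrays thus split by Yap1 alone, at 1.47% of wild type without Yap1 and 1.37% without both regulators, with a departure of -0.10 ± 0.38. OSI1 stood at 1.73% of wild type in yap1, 101% in yap8 and 2.07% in y1y8, with a departure of 0.25 ± 0.26. The multidrug exporter gene FLR1 stood at 6.20% in yap1 and 6.20% in y1y8. GTT2, a glutathione transferase, stood at 11.8% and 11.2%, and SRX1, the sulfiredoxin that repairs peroxiredoxins, at 21.1% and 20.2%. TRR1, the cytosolic thioredoxin reductase, stood at 45.0% and 44.9%, and its 95% interval of -0.17 to 0.18 was among the narrower ones.

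Other members gave the same picture over a range of effects. The departures were -0.12 ± 0.16 for the aryl alcohol dehydrogenase gene AAD6, -0.02 ± 0.20 for the old yellow enzyme gene OYE3, -0.07 ± 0.14 for the peroxidase gene GPX2 and 0.12 ± 0.10 for the glutathione reductase gene GLR1. The 2 members called higher without Yap1 were AAD10 and MCH5, a riboflavin transporter, with departures of 0.05 and 0.06. The widest interval belonged to GTO3, an omega-class glutathione transferase gene, at -1.19 to 1.01.

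After FRM2 the lowest departure of the list belonged to DRE2, which serves iron-sulfur protein assembly in the cytosol. DRE2 was 4267, 3969 and 4252 in wild type and 2263, 2738 and 2430 in yap1. It was 4594, 4554 and 4686 in yap8 and 1898, 2002 and 1687 in y1y8. The y1y8 arrays were the lowest and the yap8 arrays the highest, with no overlap between any groups. It stood at 44.6% of wild type in y1y8 where the product of the single losses would leave 65.8%, a departure of -0.56 ± 0.14 (95% interval -0.86 to -0.26) that was not called (limma adjusted p = 0.545).

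**Figure D4:**
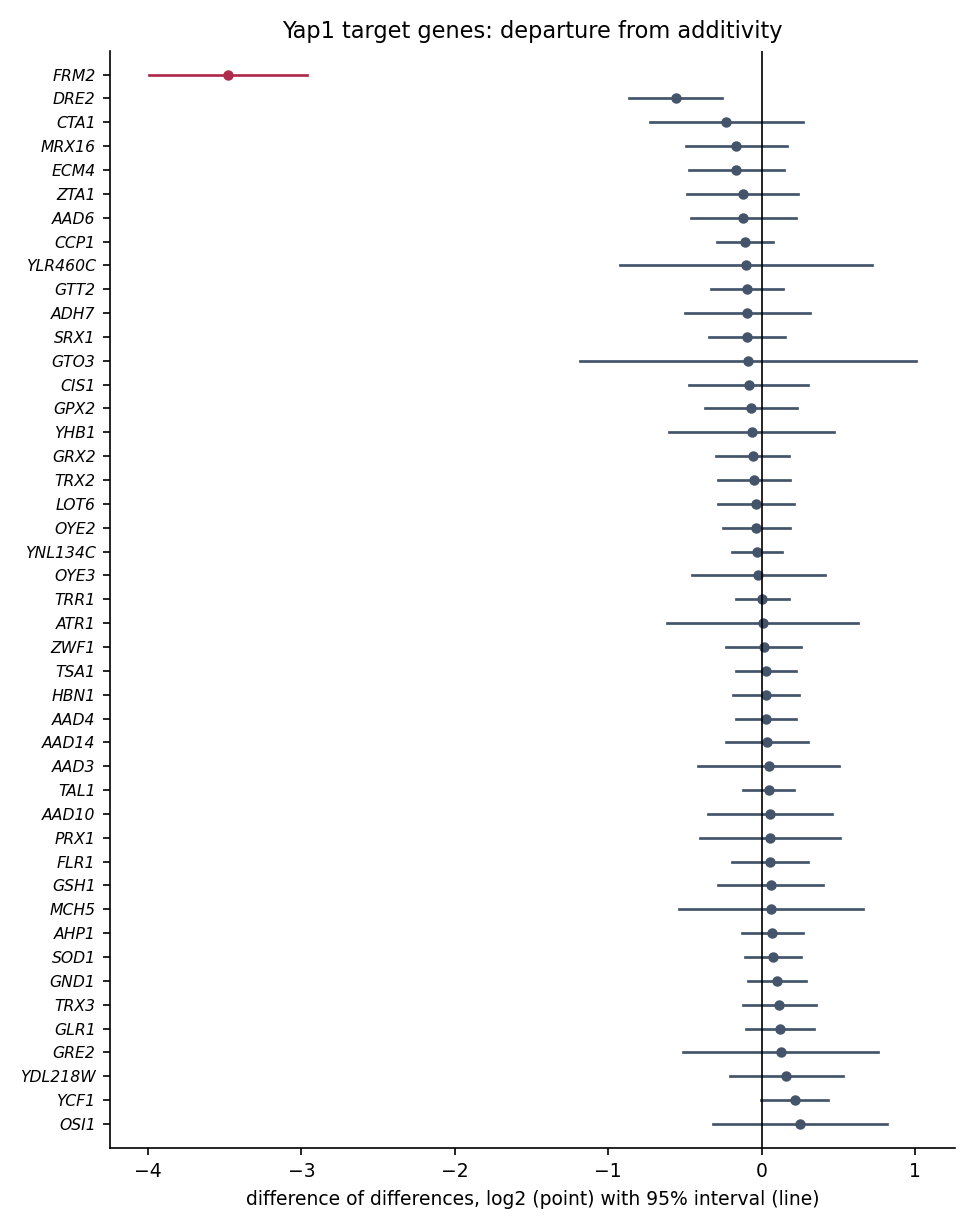
Departure from additivity in log2 units (point) with its 95% interval (line) for the 45 measured Yap1 target genes, in order of their departure. FRM2 stands at -3.48, DRE2 follows at -0.56, and the highest member is OSI1 at 0.25.

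The list of arsenic genes had 14 measured members, and 2 of them, ARR2 and ARR3, had a called departure. Of all genes, 0.0537% had one. At that share, the lack of calls among the other members does not set them apart. ARR1 is also on the list, and its departure cannot be read. YCF1, the vacuolar pump for glutathione-bound arsenite, was 5554, 5564 and 5510 in wild type and 1177, 1149 and 1174 in yap1. It was 5021, 5004 and 5454 in yap8 and 1228, 1152 and 1412 in y1y8, so it followed Yap1 with and without Yap8. Its departure was 0.22 ± 0.10, with a 95% interval of -0.00 to 0.43. VMR1, a related vacuolar pump, had a departure of 0.18 ± 0.22.

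FPS1, the glycerol channel through which arsenite crosses the membrane, had a departure of -0.07 ± 0.07, and the stress kinase gene HOG1 had 0.00 ± 0.11. Among phosphate transporters, which carry arsenate into the cell, PHO87, PHO90 and PHO91 had departures of 0.12, 0.14 and -0.00. PHO84, the high-affinity transporter, had 0.54 with an interval of -0.51 to 1.59, and its y1y8 arrays stood at 514, 534 and 1569, so that replicate 3 was far above the others. The departures of the glyoxalase gene GLO1 and of MTQ2 and TRM112, a methyltransferase and its partner, were 0.09, -0.05 and 0.16.

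Of the 8 YAP family regulators none had a called departure by limma, where 0.0537% of all genes had one. None of them had an unadjusted p under 0.05, where 4.24% of all genes did. At these shares, the lack of calls among 8 genes does not set the family apart. The departure of ARR1, which is 1 of the 8, cannot be read. CAD1 (Yap2) had -0.12 ± 0.15, YAP3 had -0.22 ± 0.17, YAP5 had 0.01 ± 0.12 and YAP6 had 0.33 ± 0.35. YAP7 stood at 29.6% of wild type in yap1 and 28.0% in y1y8, with a departure of -0.18 ± 0.18. CIN5 (Yap4) fell to 25.6% of wild type in yap1 and 20.5% in y1y8, and its interval of -1.34 to 1.12 left the departure poorly measured.

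The widest pattern above additivity was in ribosomal proteins, and it did not pass the test for any single gene. Of 129 measured cytosolic ribosomal protein genes, 128 had a departure above 0, where 46.4% of all genes did. At an unadjusted p under 0.05, 65 of them (50.4%) were above additivity, against the 2.67% of all genes given above and 84 of the 5459 other genes (1.54%). Limma called none after adjustment, and RPS8B came nearest with an adjusted p of 0.272. The median departure was 0.25 for 76 large subunit proteins and 0.29 for 53 small subunit proteins, against -0.01 over all genes. With arrays centred on their median in place of quantile normalization, the count of 65 fell to 23, while 126 of 129 stayed above 0 and the medians were 0.23 and 0.27. Leaving out 1 array moved the count between 47 (without yap1 replicate 3 or yap8 replicate 1) and 88 (without yap8 replicate 2). These genes are paralogues with shared sequence and varied together across arrays, so their count is not a count of independent genes.

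The averages over the lists show where the pattern lay. Mean log2 signal of the large subunit genes was 10.78 to 10.80 on the y1y8 arrays, 10.55 to 10.70 in wild type, 10.54 to 10.67 in yap1 and 10.48 to 10.64 in yap8. The 3 y1y8 arrays were above the other 9 arsenate arrays, and all 12 were far below untreated wild type at 12.62 to 12.69. Small subunit genes gave 10.81 to 10.85 in y1y8 against 10.50 to 10.69 in the other treated groups. Against treated wild type, 34 of the 129 genes were called higher in y1y8 and 2 lower (20% of all genes were called in that comparison, 10.1% higher and 9.88% lower), 5 were called higher and 8 lower in yap1 (9.61% and 9.34% of all genes), and limma called none in yap8 (0.125% of all genes).

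RPS8B was 1504, 1520 and 1590 in wild type and 1444, 1577 and 1402 in yap1. It was 1348, 1308 and 1370 in yap8 and 1731, 1674 and 1697 in y1y8, so the double mutant was the highest group and yap8 the lowest, with no overlap. Its departure was 0.40 ± 0.08. RPP1B, RPS17A and RPL32 had departures of 0.55 ± 0.12, 0.45 ± 0.10 and 0.44 ± 0.10. All 4 were chosen for their small p-values. Genes of ribosome biogenesis had a median departure of 0.24, with 99 of 105 above 0 (46.4% of all genes) and 10 above additivity at an unadjusted p under 0.05 (2.67% of all genes), and limma called none. Their list means overlapped between groups, at 8.98 to 9.21 in y1y8 and 8.79 to 9.07 in wild type.

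**Figure D5:**
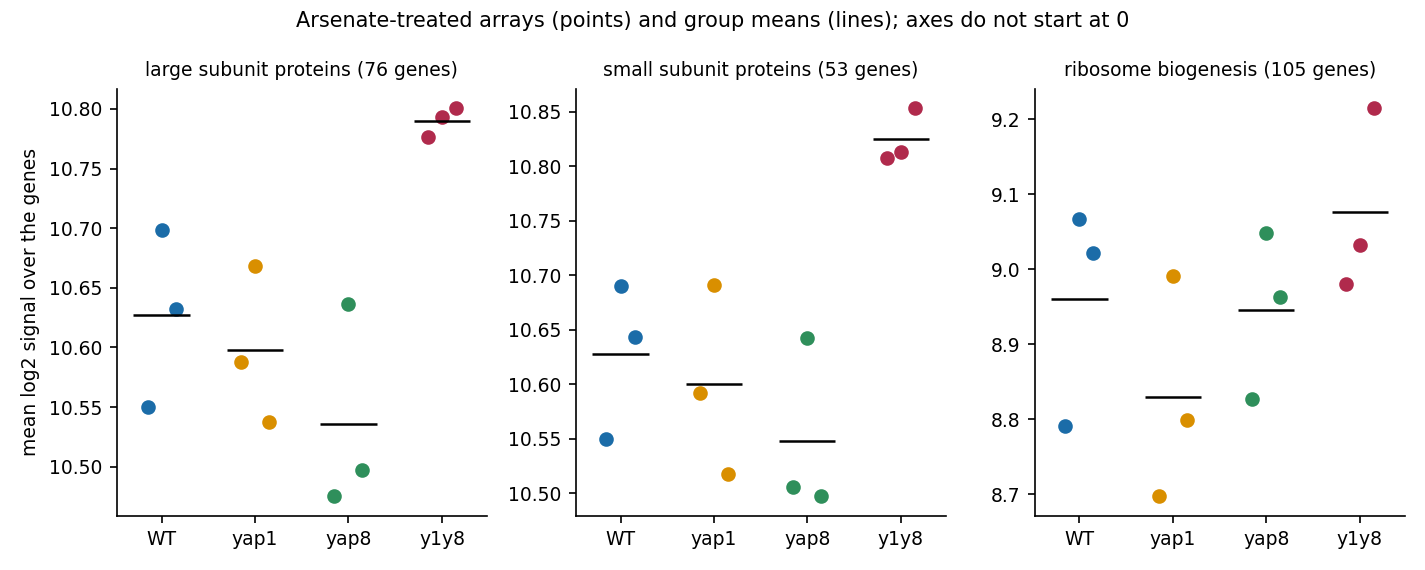
Mean log2 signal over the genes of each list on every arsenate-treated array (points) with group means (lines), on axes that do not start at 0. The y1y8 arrays lie above the other 9 for both ribosomal subunits, at 10.78 to 10.80 and 10.81 to 10.85, and overlap with other groups for ribosome biogenesis.

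The remaining functions gave no called member. Of 37 gene lists, 34 had none, and the 3 lists with one owed it to ARR2 and ARR3 or to FRM2. The median departure lay within 0.1 of 0 for 29 lists, among them sulfate assimilation and methionine (-0.04, 42 genes), glutathione and glutaredoxin (-0.02, 28 genes), heat shock chaperones (-0.06, 34 genes) and the proteasome (0.01, 39 genes). Above 0.1 lay both ribosomal lists, ribosome biogenesis, ergosterol biosynthesis (0.11, with 22 of 27 genes above 0) and genes of mating type alpha (0.22, 5 genes). Below -0.1 lay genes of mating type a (-0.17, 7 genes), sporulation (-0.13, 27 genes) and the YAP family (-0.12, 8 genes). The YAP family list holds the deleted genes YAP1 and ARR1, and the departure of ARR1 cannot be read. Apart from the ribosomal and biogenesis lists, the medians beyond 0.1 on either side were not stable. Among them, only that of mating type alpha stayed beyond 0.1 in every alternative. The YAP family median was -0.00 without y1y8 replicate 3, -0.19 without yap1 replicate 1, -0.04 with median centring, -0.06 with 16 added to the intensity and -0.03 with array weights. The sporulation median was -0.07 without yap8 replicate 2, -0.20 without yap8 replicate 3 and -0.09 with median centring. That of mating type a was -0.27 without yap8 replicate 1, -0.11 with median centring and -0.07 with array weights. That of mating type alpha was 0.11 without WT replicate 2, 0.35 without y1y8 replicate 1 and 0.13 with array weights. The ergosterol median was 0.08 without yap1 replicate 2 and 0.17 without y1y8 replicate 1.

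The precision of a departure sets what could be seen. Its median standard error over genes was 0.14 and its median 95% interval reached 0.30 to either side. The absolute departure was 0.09 for the median gene, 0.28 at the 90th percentile and 0.63 at the 99th. A departure beyond 1 log2 unit was measured in 20 genes, of which 6 were called present on all 12 arrays. Besides the 3 called genes these were URA7, a CTP synthase (1.05 ± 0.35, limma adjusted p = 0.94), PAU21, of the seripauperin family (1.16 ± 0.45, limma adjusted p = 1), and RPL41A, a ribosomal protein gene (1.51 ± 0.78, limma adjusted p = 1). For 38 genes a treated group had no present or marginal call on any array, and for these a departure was bounded by background. Limma called none of the 38, and 3 had an unadjusted p under 0.05, where 4.24% of all genes did.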

How the data were processed

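RNA was measured on 15 Affymetrix yeast arrays, and the labels gave genotype, agent and time. The deposited file of each array held an intensity per probe set on a linear scale with a detection call, not scaled between arrays. Partek is named in the submitters' processing notes, while no source used here gives the summary method. A deposited series matrix held the same intensities (largest difference 0.0), and the authors' comparison tables were used only for gene names. The series' design text gives a different array model from the one these identifiers fit. Unexplained letters (RH) stand in the file name of the second treated wild-type array, which was used like the rest.

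Of 10928 probe sets, 5498 were named by the platform annotation and 140 by the authors' tables. Where a gene had more than 1 probe set (48 genes) the brightest on average was kept, leaving 5588 genes. After quantile normalization over all 15 arrays, intensities were floored at 1 and turned to log2. R 4.3.3 with limma 3.58.1 tested the contrasts two-sided (group means for 5 groups, lmFit, eBayes, Benjamini-Hochberg). To the departures, the untreated arrays add only through the normalization, the choice of probe set and the shared spread. The fit was tested on simulated data. Precision is limited by having 3 arrays a group. Alternatives were other normalizations, low-value settings, probe set rules, tests and weights, a replicate block and leaving out each treated array.

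The members, the 37 lists and the tests were chosen with earlier results of these data known. Genes were named by a rule: YAP1, ARR1, ARR2 and ARR3, called genes with a standard symbol, a present call in each treated group and 1 sign in every fit that left out an array (up to 15 each way), called list members, neighbours of YAP1 and ARR1, URA3 and LEU2. All other genes given with values, including those called for the loss of Yap8, members of the arsenic, YAP and Yap1 target lists, neighbours of FRM2 and ribosomal protein genes, were named after their values were seen. A motif search in promoters was not run, since no promoter sequences were used here. Gene order comes from a table of assembly R64, and no coordinates are given because the files name no build.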

Additional observations from a re-analysis of the deposited data

Results flagged for a closer look

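The effect of losing Yap8 differed between cells with and without Yap1 in 3 genes, by the test of the difference itself (limma, adjusted over all 5588 genes). For ARR2 the effect was more negative by -4.43 without Yap1 (adjusted p = 2.15e-08), for FRM2 by -3.48 (adjusted p = 3.65e-06) and for ARR3 by -3.39 (adjusted p = 3.65e-06). Every group held 3 arrays, too few to look for single arrays far from their group by the gap between neighbouring values.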

How the results depend on the processing

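ARR2, ARR3 and FRM2 were called in each of the 21 alternatives to the reported fit of the departure, with values from -4.60 to -3.78, from -3.56 to -3.12 and from -3.62 to -3.23, and adjusted p of at most 6.64e-07, 6.47e-05 and 6.48e-05. The values nearest 0 for ARR2 and ARR3 came with 16 added to the intensity before log2. The count of called departures stayed at 3 except with array weights, where it was 5 (RPS8B above additivity and YBR090C below it were added), and without yap1 replicate 1, where it was 4 (PBP2 above additivity was added). Leaving out 1 array gave 3 to 4 called departures, 5 to 10 calls for the loss of Yap8 with Yap1 present, 4 to 9 with Yap1 absent, 752 to 1158 for the loss of Yap1 with Yap8 present and 779 to 1095 with Yap8 absent. The value of 9 came without yap1 replicate 2 and that of 10 without y1y8 replicate 3, and the cause was not tested. The count for array weights has no tested cause either. With the replicate number as a block, 3 departures were called, the same genes, and 5, 4, 993 and 1004 genes for the 4 single losses in the order above. Of 18 pairs of arrays with the same number, 6 correlated over 0.1 in their deviations from group means (range -0.329 to 0.408). Pairs with different numbers ranged from -0.398 to 0.357. An array of its own number was the best match for 6 of 12 arrays. These values do not settle whether the numbers pair the samples, and the reported fit used no block. The series matrix equals the array files and was not run as an alternative. What these arrays cannot show is a departure well under the median interval of 0.30 to either side, or one in genes at background. That interval is for a single gene without adjustment, and larger departures went uncalled. Among them were URA7 at 1.05 ± 0.35 (limma adjusted p = 0.94) and DRE2 at -0.56 ± 0.14 (limma adjusted p = 0.545). A gene that was not called is thus not shown to be additive.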

Other observations

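The 5 genes specific to cells of mating type alpha did not move together in the mutants. MF(ALPHA)2, which encodes a form of the alpha pheromone, was 1149, 1351 and 876 in wild type with arsenate and 128, 107 and 138 in yap1. It was 680, 669 and 566 in yap8 and 100, 125 and 65.9 in y1y8, so the arrays without Yap1 lay below the others without overlap. Its log2 difference from treated wild type was -3.16 in yap1 and -3.56 in y1y8, and its departure was 0.40 ± 0.29 and was not called (limma adjusted p = 1). STE3, the receptor for a-factor, was 0.35 higher in yap1 than in wild type (limma adjusted p = 0.0261) and differed by 0.36 in y1y8. The differences of MF(ALPHA)1, the other alpha pheromone gene, were 0.22 in yap1, not called, and 0.30 in y1y8. Those of SAG1 were -0.26 in yap1, not called, and -0.64 in y1y8. Those of AFB1 were -0.04 in yap1, not called, and -0.12 in y1y8.

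RIF2, which encodes a telomere length regulator, had one of the smallest p-values below additivity after the called genes. It was 103, 103 and 119 in wild type and 95.9, 121 and 95.9 in yap1. It was 132, 121 and 148 in yap8 and 87.0, 75.0 and 84.0 in y1y8, which was the lowest group. Its departure was -0.64 ± 0.15 (limma adjusted p = 0.483). RIF2 was named after its value was seen.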
